A study of Mus musculus with 53 samples.

Results

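The suppressor of cytokine signaling (SOCS) family was followed across an IL-4 time course in mouse bone marrow-derived macrophages (BMDMs). Its 8 genes (Cish and Socs1 to Socs7) were taken by name from 23847 loci in each sample's table of FPKM values (fragment counts divided by transcript length and library size). FPKM is a level per transcript length, so levels of different members can be set side by side. Bone marrow cells of C57BL/6 WT mice and of Stat6-/- mice on that background, a full body knockout, were taken at 8 to 12 weeks of age and differentiated for 6 days with L929 supernatant, the source of the growth factor M-CSF. They then received 20 ng/ml IL-4 for 1, 3, 6 or 24 h or were kept as controls of the same times, and controls were also taken at 0 h. The 53 samples made 18 groups, with 4 WT samples a group (at 24 h of IL-4 replicates 2 to 4, with replicate 1 not analysed here) and 2 Stat6-/- samples a group. Libraries were made from whole cultures, so fewer cells making a transcript and less of it per cell cannot be told apart.

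SOCS proteins are negative feedback inhibitors of cytokine receptors. Binding of IL-4 activates JAK kinases at its receptor, these phosphorylate STAT6, and STAT6 dimers enter the nucleus and switch on target genes. Each SOCS protein carries an SH2 domain that recognizes phosphorylated tyrosines and a SOCS box that recruits a ubiquitin ligase, so bound receptors and kinases can be blocked or degraded. SOCS1 and SOCS3 can also inhibit JAKs directly through a short kinase inhibitory region, whereas CIS (the product of Cish) and SOCS2 compete for docking sites on receptors.

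Summed over loci, FPKM came to 385889 to 464915 a sample, and 10017 to 10380 loci reached 1 FPKM. Depth relative to the median sample was 0.707 to 1.56. Stat6, the targeted gene, was at 58.7 to 90.6 FPKM in the 35 WT samples and at 14.3 to 24.0 in the 18 Stat6-/- samples, with no overlap. The 8 macrophage markers summed to at least 3117 FPKM in every WT sample, and of 8 T and NK cell markers found only Cd4 reached 1 FPKM. The 5 neutrophil markers found all reached 1 FPKM in WT and summed to 198 to 551 FPKM there. Stat6-/- libraries stood apart by replicate number. Those numbered 2 had more Usp18, an interferon-responsive gene (3.32 to 6.50-fold), than those numbered 1 in 9 of 9 groups. The Stat6-/- values of Cish, Socs1, Socs2 and Socs3 are therefore also shown by number, while most tests take both numbers together.

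STAT dimers are known to bind palindromes of TTC and GAA with 3 bases between them (TTCNNNGAA), and STAT6 also binds those with 4 bases between. RefSeq promoter windows (build GRCm38.p6, 250 bases before to 50 after the annotated start) were held for Cish, Socs1, Socs3 and Socs4. Among all 32851 windows, TTCNNNGAA was present in 8.30%, at 2 or more places in 0.457%, and the form with 4 bases between in 6.95%. Both motifs read the same on either strand. The Cish window held 2 copies of TTCNNNGAA, TTCCTGGAA and TTCTTGGAA, beginning at the RefSeq start and 11 bases after it, which is 30 and 19 bases before the start of the deposited locus. The Socs3 window held 1, TTCTTAGAA, 154 bases before the start, while neither form was found in the Socs1 and Socs4 windows. The windows of Cish and Socs1, which had the largest IL-4 responses, and of Socs3 are printed up to 30 bases after the RefSeq start. With IL-4 in WT, Socs3 lay above its controls at 1 h and below them at 24 h. TTCNNNGAA is in capitals.
Cish, chr9:107296409-107296688, plus strand: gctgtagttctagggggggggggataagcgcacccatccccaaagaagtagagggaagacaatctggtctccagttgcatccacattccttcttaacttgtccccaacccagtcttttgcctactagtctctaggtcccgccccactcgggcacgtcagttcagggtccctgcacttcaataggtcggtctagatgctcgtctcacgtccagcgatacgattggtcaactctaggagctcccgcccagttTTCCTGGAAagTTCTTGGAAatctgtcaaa
Socs1, chr16:10785507-10785786, minus strand: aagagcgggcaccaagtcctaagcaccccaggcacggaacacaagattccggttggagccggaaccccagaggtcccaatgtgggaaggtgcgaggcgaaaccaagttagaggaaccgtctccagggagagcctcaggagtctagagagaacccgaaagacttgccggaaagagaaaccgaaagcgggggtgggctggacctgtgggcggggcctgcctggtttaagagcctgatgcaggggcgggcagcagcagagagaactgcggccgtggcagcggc
Socs3, chr11:117969337-117969616, minus strand: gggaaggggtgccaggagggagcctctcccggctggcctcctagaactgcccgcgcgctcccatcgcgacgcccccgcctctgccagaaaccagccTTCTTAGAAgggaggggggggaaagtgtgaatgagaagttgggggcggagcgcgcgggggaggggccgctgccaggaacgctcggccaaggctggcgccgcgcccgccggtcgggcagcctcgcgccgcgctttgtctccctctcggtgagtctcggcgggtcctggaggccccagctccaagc
A match gives the letters of these windows and not binding.

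Before IL-4 (WT controls at 0 h, n = 4) the members ranked, by mean FPKM with SD, as Socs6 at 11.5 ± 0.627, Socs5 at 7.45 ± 0.820, Socs4 at 6.29 ± 1.07, Socs7 at 3.82 ± 0.295, Socs3 at 1.61 ± 0.281, Socs1 at 0.866 ± 0.220, Cish at 0.275 ± 0.0437 and Socs2 at 0.104 ± 0.0315. Only the ranges of the neighbours Socs5 and Socs4 overlapped. After 1 h of IL-4 the order was led by Socs1 at 95.3 ± 21.1 FPKM, followed by Socs5 at 19.7 ± 0.764, Cish at 18.1 ± 4.53 and Socs6 at 12.5 ± 0.577, and the ranges of Socs5 and Cish overlapped. After 24 h Socs6 was again the most abundant, at 21.9 ± 1.56 FPKM (SD, n = 3).

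In WT BMDMs Cish, Socs1, Socs2 and Socs5 rose with IL-4, Socs6 rose at 24 h and Socs7 fell slightly at 1 h, while Socs4 overlapped with its controls throughout. Socs3 lay above its controls at 1 h and below them at 24 h, and Socs6 also lay above its controls at 3 and 6 h. None of these 4 differences had an adjusted p under 0.05 in limma over all samples without a replicate block. At 1 h, 4 of the 8 members were called higher (adjusted p under 0.05 and at least 2-fold in limma) and none lower, against 1.09% of the 11146 loci tested called higher and 0.395% lower. The same 4 were called higher at 3 h (2.61% of loci, and 1.27% lower) and 6 h (3.18% and 2.36%). At 24 h, Cish, Socs1 and Socs2 were called higher (3.91% and 4.58%). The median log2 fold change of the 8 members was 0.98 at 1 h and 0.45 at 24 h, beside -0.02 and -0.07 over all loci tested. All IL-4 samples lay outside the range of their controls for 6, 5, 5 and 6 members at 1, 3, 6 and 24 h, where 16.1%, 38.9%, 46.1% and 64.5% of loci did so. All log2 fold changes are on the log2(FPKM + 1) scale, which understates changes of low genes.

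**Figure D1:**
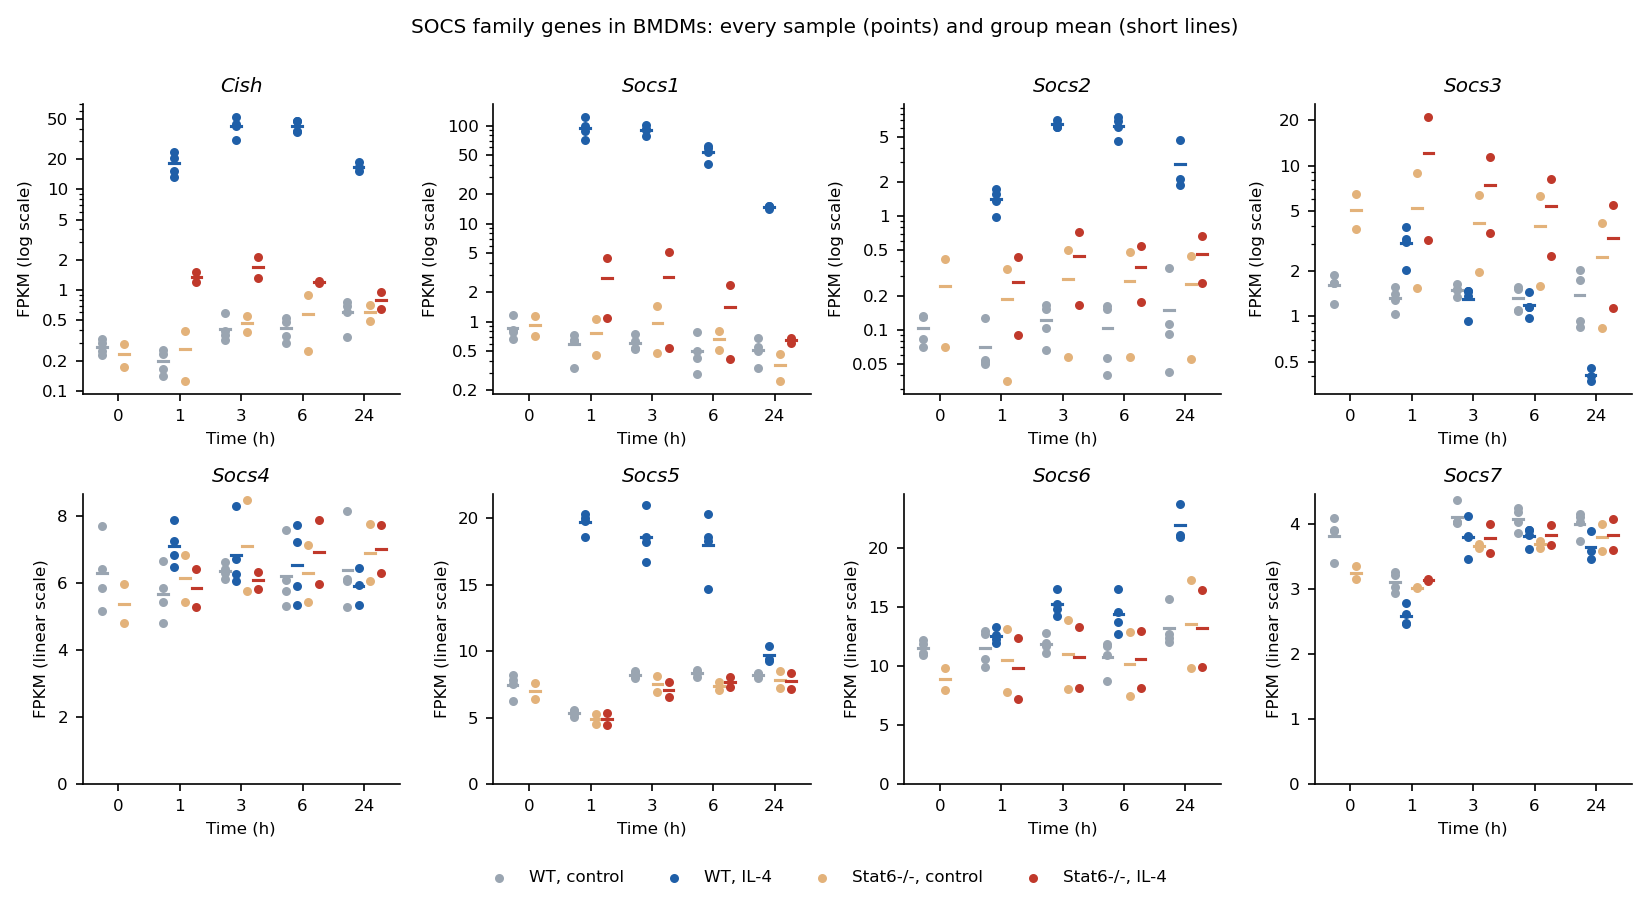
FPKM of the 8 SOCS family genes by time (h) in every sample (points) with group means (short lines), on log axes for Cish and Socs1 to Socs3 and linear axes from 0 for Socs4 to Socs7. WT IL-4 samples stand clear of their controls for Cish, Socs1 and Socs2 at every time, and Stat6-/- IL-4 samples do not reach the WT IL-4 range of these genes.

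Cish (chr9:107296689-107301961, plus strand, mm10), which encodes CIS, was nearly silent without IL-4. It was at 0.325, 0.229, 0.296 and 0.248 FPKM in WT controls at 0 h and reached at most 0.758 FPKM in any WT control. With IL-4 it was at 15.4, 13.4, 23.2 and 20.4 FPKM after 1 h, against 0.256, 0.165, 0.141 and 0.231 in its controls. Every treated sample was far above every control. After 3 h the 4 samples reached 44.6, 31.0, 42.8 and 52.0 FPKM and after 6 h 37.7, 37.2, 47.4 and 47.7, with overlapping ranges. After 24 h the 3 samples were lower than these, at 15.1, 16.7 and 18.6 FPKM. The ratios of IL-4 to control means were 91.3, 103, 102 and 27.9 at 1, 3, 6 and 24 h. In limma the log2 fold change was 3.97 ± 0.14 (SE, adjusted p = 4.2e-23) at 1 h, 4.93 ± 0.14 (SE, adjusted p = 4.0e-27) at 3 h and 3.48 ± 0.15 (SE, adjusted p = 3.9e-21) at 24 h. Its exons overlap 2 annotated genes of the opposite strand, Gm17040 and Gm17041, which have no row in the tables. Whether the counting used strand is not given in the sources used here, and 6.75% of the 100-base words of its exons occur in those genes too.

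Socs1 (chr16:10783809-10785536, minus strand), a direct inhibitor of JAK kinases and a brake on interferon and IL-4 signaling, reached the highest level of the family. Its WT controls lay between 0.292 and 1.18 FPKM over all times. After 1 h of IL-4 it was at 99.5, 87.5, 122 and 72.1 FPKM and after 3 h at 91.4, 90.4, 102 and 79.4. The 1 h and 3 h ranges overlapped. Its level was lower at 6 h, at 59.7, 54.5, 62.8 and 41.0 FPKM, and at 24 h, at 14.1, 15.2 and 15.1, and neither of these groups overlapped with an earlier one. The ratios of group means were 161, 148, 108 and 28.4 at 1, 3, 6 and 24 h. The log2 fold change was 5.90 ± 0.26 (SE, adjusted p = 3.0e-20) at 1 h and 3.38 ± 0.29 (SE, adjusted p = 1.5e-12) at 24 h. At 24 h the treated samples were still above every control.

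Socs2 (chr10:95411490-95416857, minus strand), best known as an inhibitor of growth hormone signaling, was the least abundant member in WT before IL-4. Its WT controls were at 0.0397 to 0.353 FPKM. IL-4 brought it to 0.982, 1.37, 1.56 and 1.74 FPKM at 1 h, 6.54, 6.16, 6.13 and 7.01 at 3 h and 6.14, 7.44, 6.82 and 4.61 at 6 h. It was at 4.72, 2.12 and 1.89 FPKM at 24 h, where replicate 2 was more than 2-fold above the other samples. Each IL-4 group lay above its controls, and the 1 h group lay below those of 3, 6 and 24 h. The ratios of group means were 20.1, 53.1, 60.9 and 19.4. On the log2 scale the differences were 1.16 ± 0.16 (SE, adjusted p = 8.3e-07) at 1 h, 2.73 ± 0.16 (SE, adjusted p = 6.8e-17) at 3 h and 1.70 ± 0.18 (SE, adjusted p = 2.7e-10) at 24 h.

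Socs3 (chr11:117966087-117969366, minus strand), the main inhibitor of IL-6 family receptors, was expressed before IL-4. At 1 h it was at 1.57, 1.40, 1.29 and 1.04 FPKM in controls and 3.91, 3.12, 3.25 and 2.02 with IL-4, a ratio of 2.32. All 4 treated samples were above all 4 controls at 1 h, and the groups overlapped at 3 and 6 h. At 24 h it was at 2.03, 0.939, 1.75 and 0.847 FPKM in controls and 0.457, 0.373 and 0.400 with IL-4, 3.39-fold lower, again without overlap. In limma over all samples without a replicate block neither difference passed. The log2 fold change was 0.79 ± 0.41 (SE, adjusted p = 0.27) at 1 h and -0.73 ± 0.44 (SE, adjusted p = 0.16) at 24 h. The spread in that fit includes the Stat6-/- groups, in which Socs3 differed 1.71 to 6.52-fold between the libraries numbered 1 and 2. In fits of only the samples compared, both differences passed, at adjusted p = 0.0057 for 1 h and 0.0081 for 24 h. Both also passed in limma with the replicate block (adjusted p = 1.3e-04 and 5.5e-04).

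Socs4 to Socs7 are the members with long amino-terminal regions and are less studied in cytokine signaling. Without IL-4 they made up 88.9 to 94.7% of the family's summed FPKM in WT. Socs5 (chr17:87107679-87137588, plus strand), reported as an inhibitor of IL-4 and EGF receptor signaling, was the one of them called. It was at 5.28, 5.08, 5.58 and 5.47 FPKM in 1 h controls and at 19.8, 20.0, 20.4 and 18.6 with IL-4. It remained at 18.6, 21.0, 18.2 and 16.7 FPKM with IL-4 at 3 h and 18.6, 20.3, 18.3 and 14.7 at 6 h, against controls of 8.03 to 8.52 and 8.09 to 8.59, and at 24 h it was at 10.4, 9.41 and 9.26 against 8.00 to 8.38. No treated sample overlapped with its controls at any time. The log2 fold change was 1.71 ± 0.08 (SE, adjusted p = 5.0e-20) at 1 h, 1.08 ± 0.08 (SE, adjusted p = 1.6e-14) at 3 h and 1.01 ± 0.08 (SE, adjusted p = 9.5e-14) at 6 h. At 24 h it was 0.21 ± 0.08 (SE, adjusted p = 0.034), which passed but was under 2-fold and not called. It did not pass without WT IL-4 replicate 2 or without control replicate 3 or 4 of that time (adjusted p up to 0.16). Nor did it pass with a per-gene model and Tukey's adjustment (0.40).

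Socs6 (chr18:88867880-88894207, minus strand), an adaptor that targets receptor tyrosine kinases such as KIT, rose at 24 h. Its WT controls were at 8.69 to 15.7 FPKM. Treated WT samples were at 12.6, 11.9, 12.3 and 13.3 FPKM after 1 h, overlapping with the 1 h controls of 9.86 to 13.0. At 3 h they were at 15.3, 14.2, 14.8 and 16.5, above all of the 4 controls of that time. At 24 h it was at 20.9, 21.1 and 23.7 FPKM against 12.3, 12.0, 12.7 and 15.7 in controls. The 24 h difference passed at a log2 fold change of 0.70 ± 0.19 (SE, adjusted p = 0.0026), but not in a per-gene model with Tukey's adjustment (adjusted p = 0.12). Those at 3 h (0.33 ± 0.18 SE, adjusted p = 0.18) and 6 h (0.38 ± 0.18 SE, adjusted p = 0.085) did not. They passed in fits of only the samples compared (adjusted p = 0.0019 and 0.017) and in limma with the replicate block (1.0e-04 and 9.2e-06). Of its 100-base exon words, 4.35% also occur in Gm9449.

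Socs4 (chr14:47277143-47291591, plus strand), which can act on the EGF receptor, stayed at 4.79 to 8.46 FPKM over all 53 samples and passed in no comparison of IL-4 with control in limma over all samples without a replicate block, with which it passed in WT at 1 h (adjusted p = 0.031). Socs7 (chr11:97362551-97398542, plus strand), a regulator of insulin signaling, was at 2.94, 3.02, 3.25 and 3.21 FPKM in WT controls and 2.46, 2.78, 2.61 and 2.47 with IL-4 at 1 h. All treated samples were below the controls, and the log2 fold change was -0.20 ± 0.05 (SE, adjusted p = 0.0038), 1.20-fold lower in means. In a fit of only these samples the adjusted p was 0.064. At 3, 6 and 24 h its log2 fold changes were -0.09 ± 0.05, -0.08 ± 0.05 and -0.11 ± 0.05 (SE), none of which passed.

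The responding members differed in timing when the WT response at one time was set against the next. From 1 to 3 h, 3 members passed (11.1% of loci did). The log2 response of Cish increased by 0.96 ± 0.20 (SE, adjusted p = 5.5e-04) and that of Socs2 by 1.57 ± 0.23 (SE, adjusted p = 4.3e-06), while that of Socs5 changed by -0.62 ± 0.11 (SE, adjusted p = 8.3e-05). The Socs5 samples with IL-4 overlapped between these times, at means of 19.7 and 18.6 FPKM. Its control means differed, at 5.35 FPKM at 1 h and 8.25 at 3 h. Socs1 was already at its highest mean at 1 h, and its change was -0.07 ± 0.37 (SE, adjusted p = 0.96). From 3 to 6 h no member passed and none had an unadjusted p under 0.05 in limma (3.31% of loci passed). In a fit of only those samples, Socs1 passed with a change of -0.63 (adjusted p = 0.035). From 6 to 24 h, 4 members passed in limma without a replicate block (27.8% of loci did), all with a smaller response at 24 h. These were Cish by -1.46 ± 0.20 (SE, adjusted p = 5.2e-07) and Socs1 by -1.82 ± 0.39 (SE, adjusted p = 4.0e-04). The others were Socs2 by -1.0 ± 0.24 (SE, adjusted p = 0.0015) and Socs5 by -0.80 ± 0.11 (SE, adjusted p = 8.5e-07). For Cish and Socs2 the changes between 1 and 3 h did not pass with a pseudocount of 0.1 FPKM (adjusted p = 0.52 and 0.086), and neither did that of Socs2 between 6 and 24 h (adjusted p = 0.13). With the replicate block in limma, Socs3 also passed from 1 to 3 h (-0.91 ± 0.22 SE, adjusted p = 0.0016) and from 6 to 24 h (-0.59 ± 0.23 SE, adjusted p = 0.031). Socs6 passed from 6 to 24 h with a larger response at 24 h (0.31 ± 0.10 SE, adjusted p = 0.013).

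**Figure D2:**
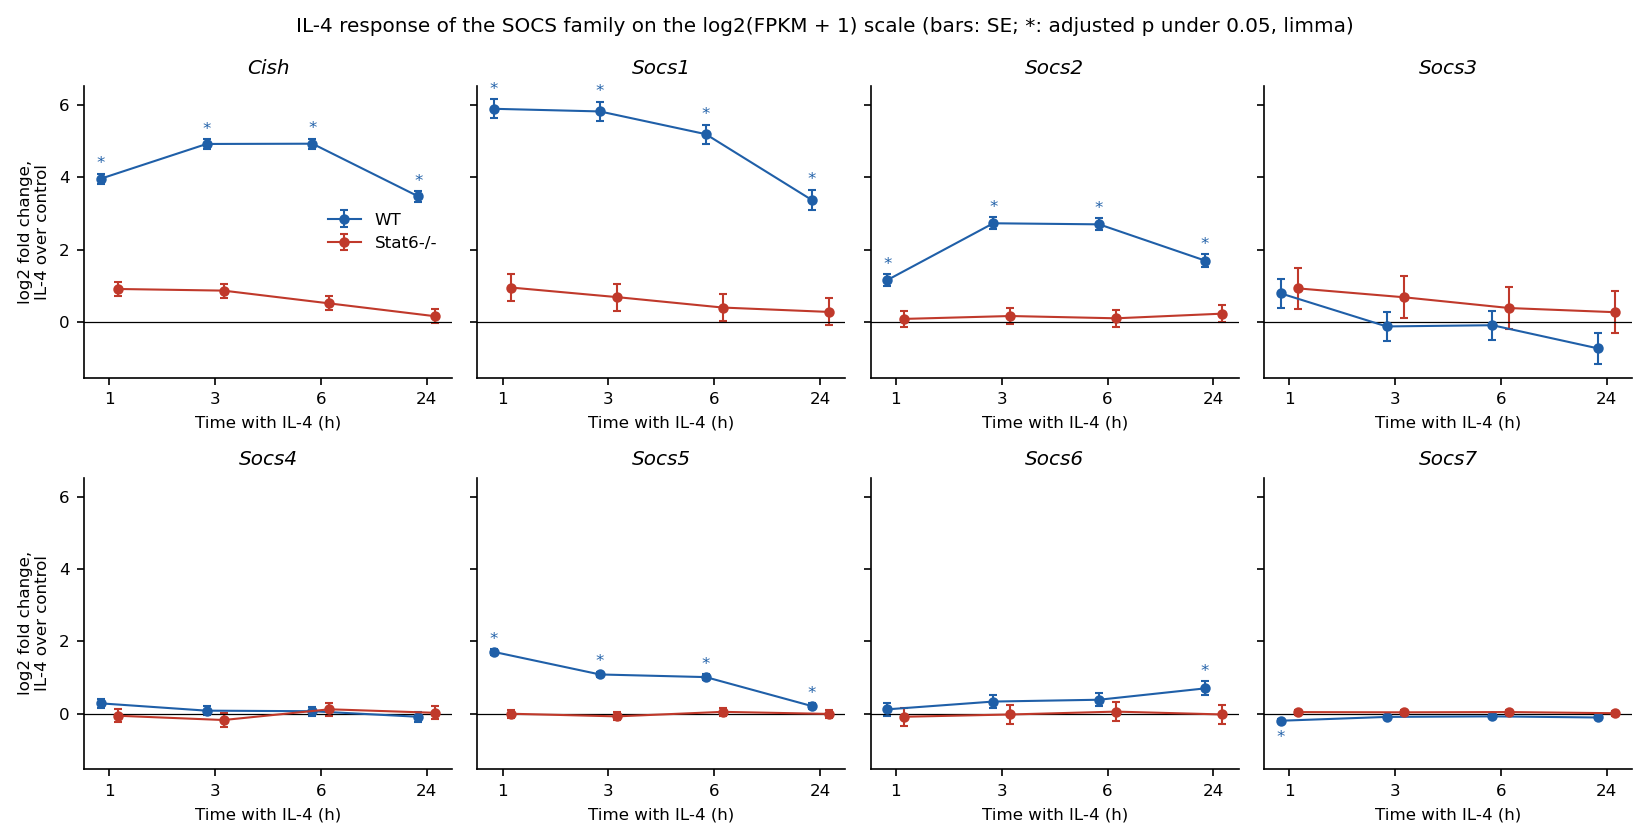
log2 fold change of IL-4 over the control of the same time, on the log2(FPKM + 1) scale, for each member by time with IL-4 (h), in WT (blue) and Stat6-/- (red) BMDMs. Bars are SE and asterisks mark adjusted p under 0.05 in limma over all 53 samples. Cish and Socs2 were highest at 3 and 6 h, Socs1 and Socs5 at 1 h and Socs6 at 24 h, and no Stat6-/- value carries an asterisk. The WT controls of Socs5 were lower at 1 h than at the later times.

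Summed over its members, the family was at 25.1 to 35.7 FPKM in WT controls and 74.2 to 195 in WT IL-4 samples. The mean sum with IL-4 was 159.8 ± 23.5 FPKM at 1 h (SD, n = 4), 186 ± 8.13 at 3 h (n = 4), 147 ± 10.2 at 6 h (n = 4) and 76.0 ± 1.82 at 24 h (n = 3). Socs1 alone was 59.2% of the sum at 1 h and 19.5% at 24 h. The share of Cish was 11.4% at 1 h and 29.0% at 6 h. Socs4 to Socs7 together made up 21.7 to 54.8% of the sum in IL-4 samples. In Stat6-/- the sum was 29.3 to 36.2 FPKM in controls and 31.8 to 48.6 with IL-4.

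**Figure D3:**
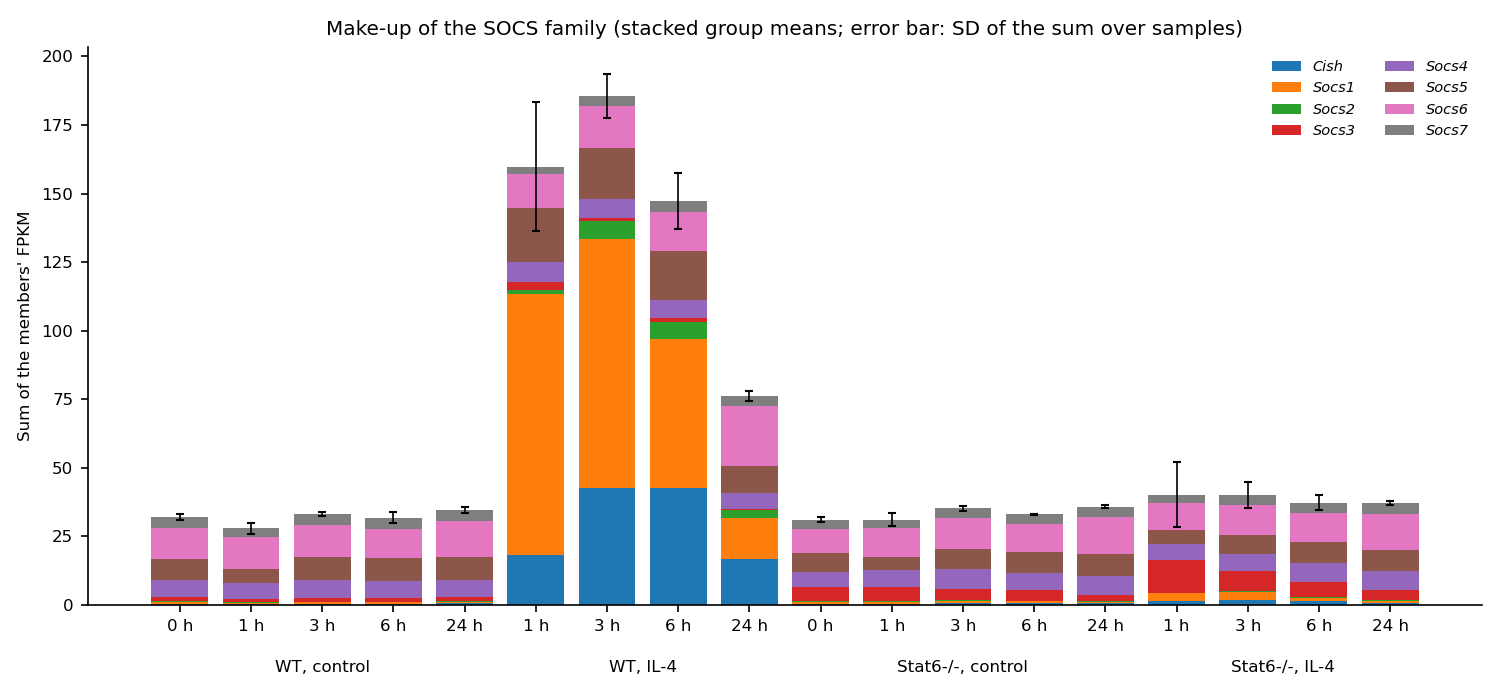
Sum of the members' FPKM in the 18 groups, stacked by member from group means, with the SD of the sum over samples as error bar (3 or 4 WT and 2 Stat6-/- samples a group). Socs1 and Cish make up most of the added height in WT at 1 to 6 h of IL-4, and Socs6 is the largest segment at 24 h.

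In Stat6-/- BMDMs no member passed at any single time, and neither did any of the 11146 loci (0% at 1, 3, 6 and 24 h in limma). At an unadjusted p under 0.05 there were 51, 131, 88 and 37 loci, among them Cish at 1, 3 and 6 h and Socs1 at 1 h. Cish was at 0.390 and 0.126 FPKM in the controls of 1 h and 1.21 and 1.52 with IL-4, and at 0.552 and 0.383 and 1.31 and 2.11 at 3 h (libraries numbered 1 and 2 in that order). The treated samples lay above the controls at 1, 3 and 6 h. The ratios of means were 5.30, 3.66, 2.10 and 1.32 at 1, 3, 6 and 24 h, against at least 27.9 in WT. Averaged over the 4 times, the log2 fold change of Cish was 0.62 ± 0.10 (SE, adjusted p = 0.0025), and it was the only one of 11146 loci to pass (0.00897%). In a fit of only the Stat6-/- samples compared it did not pass (adjusted p = 1). The log2 fold change was 0.42 with the libraries numbered 2 left out and 0.81 with those numbered 1 left out. Those 2 fits keep 1 library in each Stat6-/- group, so only effect sizes are given. An exact two-sided permutation of the treatment labels within times gave p = 0.0031 for Cish over 1296 arrangements, with a smallest possible p of 0.0015.

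Libraries of the same number deviated together in Stat6-/-, so the replicate number was also fitted as a block. With this pairing Cish passed at 1 h (adjusted p = 0.012) and 3 h (0.018) in limma, where 0.0179% and 0.0359% of loci did. The averaged response passed for 3 members, among 46 loci (0.413%): Cish (1.7e-05), Socs1 at 0.58 ± 0.14 (SE, adjusted p = 0.038) and Socs3 at 0.57 ± 0.11 (SE, adjusted p = 0.0053). Cish, Socs2 and Socs3 were higher with IL-4 in 8 of 8 pairs of the same time and number, as were 2.10% of loci, and Socs1 and Socs7 in 7 of 8. These 8 pairs are 4 times of only 2 library numbers, so they are not 8 independent cultures, and the p-values of the block and of swaps within pairs, which treat them as such, may be too small. Exact swaps gave p = 0.0078 for Cish, Socs2 and Socs3, the smallest that 256 swaps allow, and 0.023 for Socs1. With Benjamini-Hochberg adjustment over the 8 members these were 0.021 and 0.047. Permuted within times without pairing, Socs1, Socs2 and Socs3 gave exact p = 0.097, 0.29 and 0.28.

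The Stat6-/- values of Socs1, Socs2 and Socs3 differed with the library number. Socs1 with IL-4 was at 1.08 and 4.48 FPKM at 1 h and 0.538 and 5.15 at 3 h, against controls of 0.464 and 1.07 and 0.484 and 1.44. In both cases the library numbered 2 was the one with more than a 3-fold ratio. With those numbered 1 left out, its log2 fold change was 1.40 at 1 h and 1.33 at 3 h. With those numbered 2 left out, it was 0.51 at 1 h and 0.05 at 3 h. These are effect sizes only, as 1 library then remains in each Stat6-/- group. Socs3 was at 1.55 and 8.94 FPKM in 1 h controls and 3.21 and 20.9 with IL-4. Its levels thus differed widely between the numbers, but its ratio of IL-4 to control was 2.07 and 2.34 at 1 h and 1.82 and 1.79 at 3 h. The ratio in WT was 2.32 at 1 h and 0.874 at 3 h. Socs2 was 2.61 to 9.59-fold higher in libraries numbered 2 in 9 of 9 groups, with 0.0578 and 0.507 FPKM in controls and 0.166 and 0.726 with IL-4 at 3 h. Usp18 was higher in the same libraries, and the part of that difference in these results was not tested. Socs4 to Socs7 had Stat6-/- ratios of group means between 0.854 and 1.10.

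**Figure D4:**
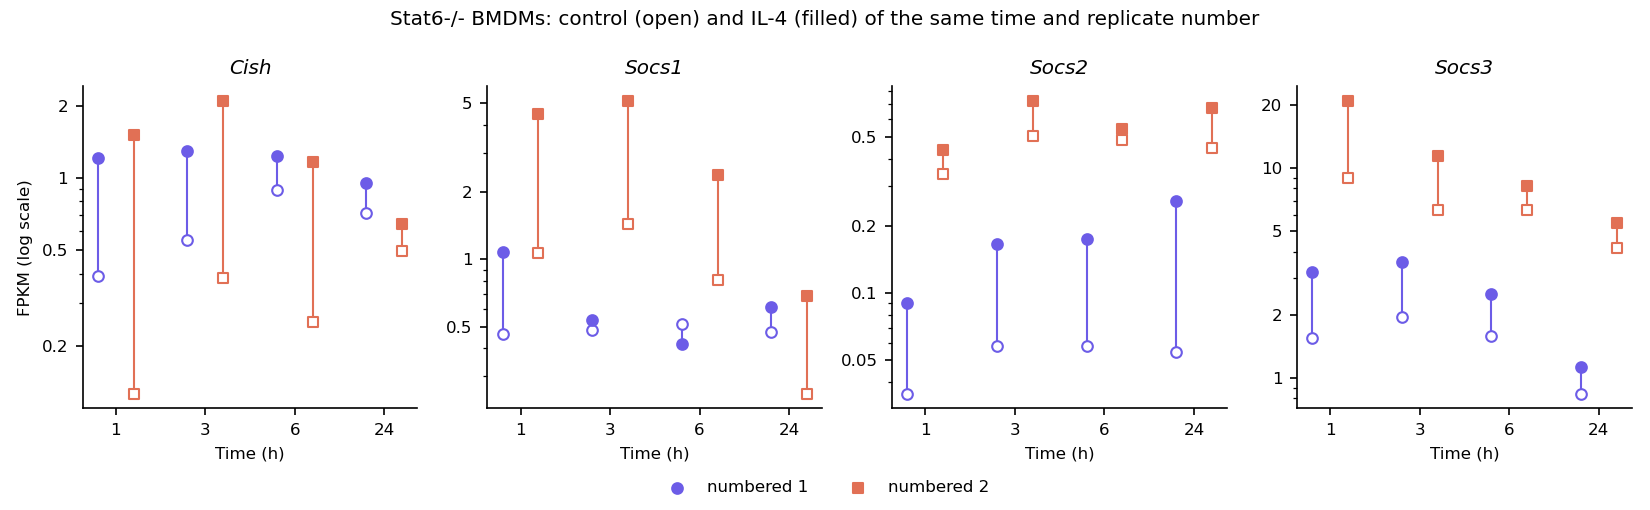
FPKM (log axes) of Cish, Socs1, Socs2 and Socs3 in Stat6-/- BMDMs by time (h), with a line from the control (open) to the IL-4 sample (filled) of the same replicate number. Every line rises for Cish, Socs2 and Socs3, and the libraries numbered 2 (squares) lie above those numbered 1 (circles) for Socs2 and Socs3.

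The difference between the WT and Stat6-/- responses was tested as an interaction. At 1 h it was called for Cish, Socs1, Socs2 and Socs5, each with the larger response in WT (0.915% of loci, and 0.332% the other way). The same 4 were called at 3 h (2.42% and 1.06% of loci), and Cish, Socs1 and Socs2 at 6 h (2.59% and 1.81%) and 24 h (3.34% and 3.51%). For Cish the log2 difference was 3.05 ± 0.24 (SE, adjusted p = 4.9e-12) at 1 h and 4.42 ± 0.24 (SE, adjusted p = 2.0e-17) at 6 h. For Socs1 it was 4.94 ± 0.46 (SE, adjusted p = 3.3e-10) at 1 h and 3.10 ± 0.47 (SE, adjusted p = 3.7e-06) at 24 h. Socs2 differed by 2.56 ± 0.28 (SE, adjusted p = 5.9e-09) at 3 h but by 1.08 ± 0.28 (SE, adjusted p = 0.020) at 1 h, a call lost without the 1 h IL-4 library numbered 1 (adjusted p = 0.20) or the 1 h control numbered 2 (0.18). Socs5 differed by 1.71 ± 0.13 (SE, adjusted p = 4.9e-12) at 1 h, by 0.96 ± 0.13 (SE, adjusted p = 8.2e-07) at 6 h and by 0.22 ± 0.14 (SE, adjusted p = 0.25) at 24 h, which did not pass. Socs3 and Socs6 did not pass at any time in the fit of all samples without the replicate block. With it, Socs3 differed at 3 h (-0.81 ± 0.26 SE, adjusted p = 0.024) and 24 h (-0.95 ± 0.27 SE, adjusted p = 0.0045), lower in WT, and Socs6 at 3, 6 and 24 h, where the 24 h value was 0.71 ± 0.12 (SE, adjusted p = 1.0e-05). That fit passed 21.4%, 30.2% and 45.0% of loci at 3, 6 and 24 h. Fits with 1 library number left out keep 1 library in each Stat6-/- group, so none of their p-values is given.

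Without IL-4 the members were mostly steady. In WT, 2 of 8 passed between 0 and 1 h (2.0% of loci did): Socs5 went from 6.29, 8.18, 7.80 and 7.52 to 5.28, 5.08, 5.58 and 5.47 FPKM, a log2 change of -0.41 ± 0.08 (SE, adjusted p = 0.0021), and Socs7 from 4.08, 3.4, 3.88 and 3.90 to 2.94, 3.02, 3.25 and 3.21, a change of -0.23 ± 0.05 (SE, adjusted p = 0.0056). In fits of only these samples neither passed (adjusted p = 0.16 and 0.34). Without a replicate block no member passed at 3, 6 or 24 h against 0 h (0.144%, 0.135% and 17.2% of loci passed). At an unadjusted p under 0.05 there were 0, 0 and 1 members. That member was Cish at 24 h, at 0.758, 0.346, 0.694 and 0.612 FPKM, above all 4 samples of 0 h. Its log2 change was 0.32 ± 0.14 (SE, adjusted p = 0.10) and passed in a fit of only these samples (adjusted p = 0.028). With the replicate block in limma, Cish (adjusted p = 0.024) and Socs6 (0.17 ± 0.07 SE, adjusted p = 0.040) passed in WT controls at 24 h, both higher than at 0 h. In Stat6-/- controls no member passed at 1, 3, 6 or 24 h against 0 h (0.0807%, 0%, 0% and 0.718% of loci), with 1, 0, 1 and 1 at an unadjusted p under 0.05. With the replicate block 3 members passed: Socs5 at 1 h (-0.44 ± 0.10 SE, adjusted p = 0.017), among 1.15% of loci, and at 24 h, among 16.8%, Socs3 (-0.95 ± 0.22 SE, adjusted p = 0.0019) and Socs6 (0.51 ± 0.10 SE, adjusted p = 2.1e-04).

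Stat6-/- and WT controls, averaged over the 5 times, differed in 2 members (21.4% of loci passed). The 10 Stat6-/- controls are 5 times of 2 library numbers that deviate together, which the test takes as independent, so its p-values may be too small. Socs3 was at 1.88, 1.22, 1.67 and 1.68 FPKM in WT and 3.78 and 6.44 in Stat6-/- at 0 h, and its averaged log2 difference was 0.91 ± 0.22 (SE, adjusted p = 0.0027), higher in Stat6-/-. With the libraries numbered 2 left out it was 0.22, and with those numbered 1 left out 1.59. Each Stat6-/- group then holds 1 library, so no p-value is given. Socs7 was lower in Stat6-/- by a log2 difference of -0.10 ± 0.03 (SE, adjusted p = 0.0036), which did not pass after quantile normalization (adjusted p = 0.071). At single times no member passed (2.18% of loci at 0 h, 1.54%, 0.772%, 0.413% and 0.108% at 1, 3, 6 and 24 h), with 2, 1, 1, 0 and 0 members at an unadjusted p under 0.05 in limma. Neutrophil markers summed to 198 to 551 FPKM in WT, 562 to 961 in Stat6-/- libraries numbered 1 and 516 to 673 in those numbered 2, and their part in the Socs3 difference was not tested.

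The genes most like each called member were taken by Pearson r of the 18 group means of log2(FPKM + 1). These means share the same libraries, and r is a description only. Cish was closest to Irf4, a transcription factor of alternatively polarized macrophages (r = 0.985), Plekha3 (0.985) and Slc30a4 (0.978). Socs1 was closest to Rnf19b (0.986), Nfil3, a bZIP transcription factor (0.980), and Olr1, a receptor for oxidized LDL (0.975). Socs2 was closest to Snn (0.988), Slc29a2 (0.986) and Jak2, one of the JAK kinases (0.984). Socs5 was closest to Brwd1 (0.967), Btbd3 (0.962) and Nabp1 (0.959).

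Part of the signaling pathway around the members also changed with IL-4 in WT. Of 14 core genes (among them IL-4 receptor chains, JAKs and STATs), 2, 4, 5 and 1 passed higher and 0, 2, 4 and 6 lower at 1, 3, 6 and 24 h, while of all loci 5.67%, 16.4%, 22.0% and 23.4% passed higher and 3.72%, 12.5%, 19.2% and 31.6% lower. Jak2, a kinase of the cytokine receptors, rose by a log2 value of 1.70 ± 0.10 at 3 h (SE, adjusted p = 1.6e-17). Il4ra, the IL-4 binding receptor chain, rose by 1.59 ± 0.24 at 3 h (adjusted p = 9.0e-07). Il13ra1, its partner in the type II receptor, fell, with a log2 fold change of -1.34 ± 0.08 at 6 h (adjusted p = 1.4e-16). Stat4, the STAT of IL-12 signaling, fell at 24 h, at -1.13 ± 0.21 (adjusted p = 2.2e-05). Of 13 inhibitors outside the family, 2, 4, 4 and 4 passed higher and 0, 2, 2 and 4 lower at 1, 3, 6 and 24 h. Cbl, a ubiquitin ligase for receptors, was at 1.40 ± 0.23 at 1 h (adjusted p = 1.7e-05), its relative Cblb at 1.90 ± 0.17 at 24 h (3.9e-12) and Ptpn2, a JAK phosphatase, at 1.06 ± 0.06 at 6 h (7.1e-17).

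Over the 4 times in WT, 12.8% of all loci were called at least once. Of 27 other genes with a SOCS box, 16 were tested and 2 called, Spsb1, an adaptor for inducible nitric oxide synthase (1.51 ± 0.07 at 6 h, SE, adjusted p = 7.3e-20), and Wsb2 (1.17 ± 0.22 at 24 h, 2.5e-05). None of the 6 subunits of the ligases that SOCS boxes bind was called, and 0, 2, 3 and 1 of them passed higher at 1, 3, 6 and 24 h. Among 22 receptors that SOCS proteins are known to act on, 15 were tested and 7 called at least once. Csf2rb, the shared chain of the GM-CSF and IL-3 receptors, was at 1.5 ± 0.14 at 6 h (adjusted p = 2.7e-11) and Csf3r, the G-CSF receptor, at 1.59 ± 0.09 (2.0e-17). At 24 h Il6ra was at -1.33 ± 0.15 (1.3e-09) and Lifr at -1.20 ± 0.25 (8.4e-05). The 4 genes of alternative polarization, Arg1, Retnla, Chi3l3 and Mrc1, were each called at 3 and 6 h, with a median log2 fold change of 3.10 and 4.30.

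**Figure D5:**
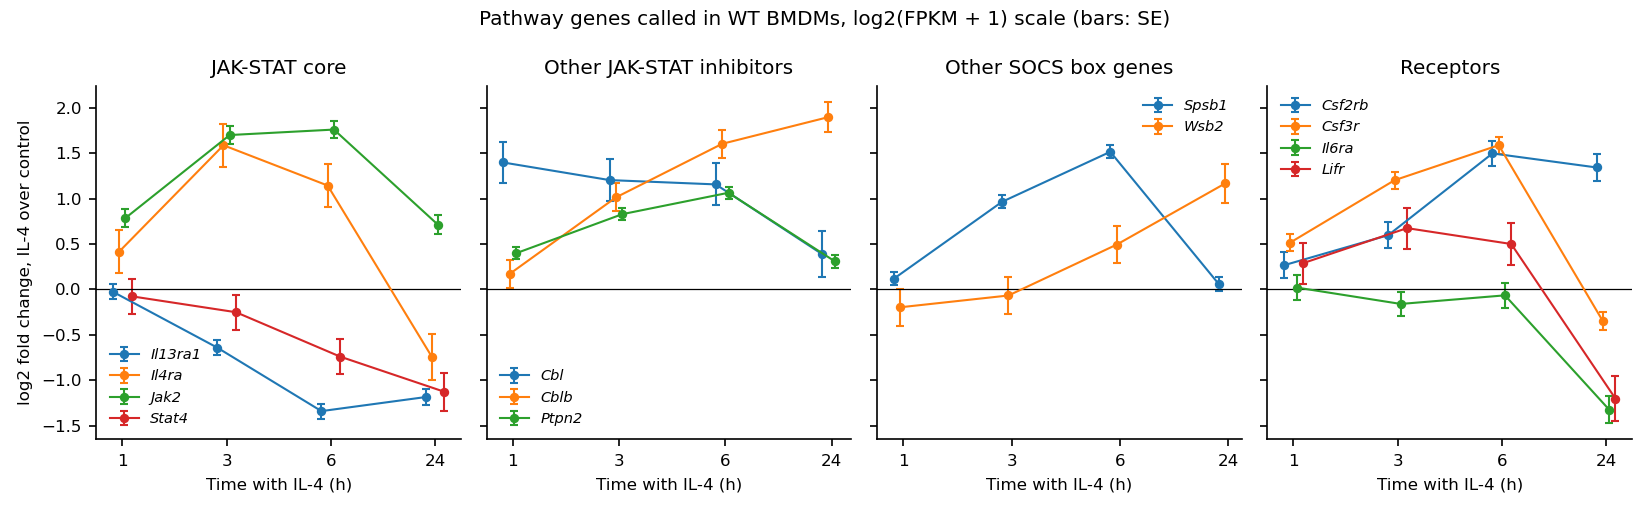
log2 fold change of IL-4 over the control of the same time in WT BMDMs (log2(FPKM + 1) scale, SE bars) by time (h), for the called genes named from 4 lists: JAK-STAT core, other inhibitors, other SOCS box genes and receptors. Jak2, Il4ra, Spsb1 and Csf3r were highest at 3 or 6 h, and Il4ra, Il13ra1, Stat4, Csf3r, Il6ra and Lifr were below 0 at 24 h.

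Macrophage markers were lower with IL-4 in WT at 3, 6 and 24 h, the times of the highest Cish and Socs2 levels (3 and 6 h) and of the highest Socs6 level (24 h). They summed to 4943 to 5236 FPKM in controls and 4153 to 4652 with IL-4 at 3 h. There 3 of 8 passed lower, as did 12.5% of all loci. At 6 h the sums were 4738 to 5115 and 3774 to 4055 FPKM, and 4 of 8 passed lower (19.2% of all loci did). At 24 h they were 4706 to 5259 and 3117 to 3266 FPKM, and 6 of 8 passed lower (31.6% of all loci did). Cd14 was lower by the most, at -3.89 ± 0.36 SE. The paper reports Cd14 among the genes that IL-4 represses in a STAT6-dependent way. Lower Cd14 can therefore not be read as a lower share of macrophages. Neutrophil markers at 24 h summed to 407 to 551 FPKM in controls and 198 to 288 with IL-4, and none passed at 3 or 6 h. The T and NK cell list, of which only Cd4 reached 1 FPKM, was at 8.26 to 15.9 and 0.855 to 1.60 FPKM at 24 h, and Cd4 also passed lower at 3 and 6 h. At 1 h, when Socs1 and Socs5 were highest, the macrophage markers were at 4859.6 to 5768 and 4583 to 4689 FPKM and no marker of any of these lists passed. The part of these shifts in the values of the members was not tested.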

How the data were processed

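Polyadenylated RNA of BMDM cultures was sequenced as paired reads. Per the submitters' processing notes, the authors mapped reads to mm10 with TopHat2 2.0.7 and Cufflinks 2.0.2 gave the deposited FPKM values, 1 table per sample. Annotation and strandedness are not given in the sources used here. Tables were joined on locus, and samples were grouped by their labels. Loci at 1 FPKM or more in at least 1 sample were tested (11146 loci, all 8 members among them). Values as log2(FPKM + 1) entered a linear model with a mean per group over all 53 samples (35 residual degrees of freedom) in limma 3.58.1 with an intensity trend (R 4.3.3). Tests were two-sided with Benjamini-Hochberg adjustment across loci per contrast. The script was tested on simulated data.

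The tables hold no counts, so absolute depth is unknown and no counting interval is given. Relative depth came from ratios of low loci. FPKM is scaled within a sample, so a large change in abundant genes shifts all others. Replicates were separate samples by their labels, and p-values measure the spread between them, which may in part be technical. Same-numbered Stat6-/- samples deviated from their group means together in 36 of 36 pairs of groups and are treated as paired. With 2 samples a group both numbers give the same r (lowest r 0.425). WT pairs exceeded an r of 0.1 in 111 of 136 (lowest r -0.145) and are not treated as paired outside the replicate block. Their mean r was 0.223, against -0.0743 for different numbers, so the WT tests without the block leave this pairing out. The named genes are the members, Stat6, up to 4 genes per list called in WT with the largest changes, and the 3 genes most like each called member. Usp18 in the comparison of Stat6-/- libraries was chosen after its values were seen. A gene of the core list is not reported here. The members and lists were chosen with earlier results of these data known. The leaving out of one Stat6-/- number was added after seeing the data. Alternatives were a pseudocount of 0.1, no filter, median-ratio and quantile scaling, no trend, the compared samples alone, a replicate block, a per-gene model with Tukey's adjustment and each replicate left out. Exact permutations ran in R 4.3.3 and motif searches in Python 3.11.15.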

Additional observations from a re-analysis of the deposited data

Results flagged for a closer look

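In 64 sets of 4 WT samples (a member in a group), 2 had a sample far from the rest, where chance flags about 1 in 20. Socs2 was at 0.126 FPKM in replicate 1 of the WT controls at 1 h and at 0.050 to 0.0539 in the other samples. Socs7 was at 4.36 FPKM in replicate 4 of the WT controls at 3 h and at 4.01 to 4.03 in the others.

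For 4 members the WT response to IL-4 differed from that of Stat6-/- BMDMs in limma, each with the larger increase in WT. The log2 differences were 3.05, 4.06, 4.42 and 3.31 for Cish and 4.94, 5.13, 4.79 and 3.10 for Socs1 at 1, 3, 6 and 24 h. For Socs2 they were 1.08, 2.56, 2.60 and 1.47 at these times, and for Socs5 1.71, 1.16 and 0.96 at 1, 3 and 6 h.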

How the results depend on the processing

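Of 507 counts of called members under alternatives, 485 remained within 1.5 times the count reported, and no value past the threshold changed sign. Of 4120 member fold changes, 4025 kept their side of the threshold, of which 249, past it in neither fit, changed sign. The count of called members was equal in 30 of 30 comparisons with no filter on low values, no intensity trend or only the samples compared. It changed in 2 each with median-ratio scaling and quantile normalization and in 26 of 265 with a replicate left out. Among these were the call of Socs5 at 6 h in WT and that of Socs2 between 6 and 24 h, both near 2-fold, which remained past the adjusted p but under 2-fold. With a pseudocount of 0.1 FPKM the count changed in 8 of 30 comparisons, in 4 of them past the limit of 1.5 times. In those 4, 1 member was called in Stat6-/- at 1 h (Cish) and 1 on average (Cish), 0 in place of 1 between the WT responses at 1 and 3 h, and 1 between genotypes in controls on average (Socs3). Calls with 1 Stat6-/- library number left out are among the totals above but are not listed, because each Stat6-/- group then holds 1 library. Leaving out single replicates gave 1 to 2 called members between the WT responses at 1 and 3 h (2 without WT IL-4 replicate 3 or 4 of 1 h, IL-4 replicate 2 of 3 h or control replicate 4 of 3 h) and 0 to 1 between genotypes in controls on average (1 without the Stat6-/- control numbered 1 of 1, 3, 6 or 24 h). The causes were not tested.

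With the replicate block, the count of called members was equal in 23 of 24 comparisons (between the WT responses at 6 and 24 h it was 2 in place of 3, without Socs2), and 22 member values passed that had not. In Stat6-/- 46 loci passed on average in place of 1. In WT the replicate block let Socs3 pass at 1 h (adjusted p = 1.3e-04) and 24 h (5.5e-04), Socs4 at 1 h (0.031) and Socs6 at 3 h (1.0e-04) and 6 h (9.2e-06). What a replicate number marks is not given in the sources used here for either genotype. For genotypes compared in controls no paired analysis was possible because replicate numbers are nested in genotype. Over all loci, a pseudocount of 0.1 moved the called counts from 617 to 931 at 6 h and from 947 to 1522 at 24 h in WT, and from 763 to 1198 for the 24 h interaction. A per-gene model with Tukey's adjustment kept 60 of 64 member results. Cish passed in Stat6-/- at 1 h (adjusted p = 0.011) and 3 h (0.018), and Socs5 (0.40) and Socs6 (0.12) did not pass in WT at 24 h. Absolute depth is unknown, and values of Socs2 and Cish in controls are low.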
